A study of Drosophila melanogaster with 12 samples.

Results

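Fat bodies of larvae that carried both EcR RNAi and a high-sugar diet were compared with those of unstressed controls, which had neither. The comparison used 6 of the 12 libraries of the series, chosen by their labels alone: 3 of EcR RNAi on 0.5 M sucrose and 3 of control on 0.15 M sucrose. In fly larvae the fat body does the work of liver and adipose tissue, and all larvae were female Drosophila melanogaster collected as they left the food to wander, at the end of larval growth. In the EcR RNAi groups, males of VDRC stock 37058, with a UAS hairpin against the ecdysone receptor gene EcR, had been crossed to females with UAS-Dcr2 on the X chromosome and r4-GAL4, a driver active in fat body. In the control groups the males came from VDRC control stock 60000, for which the labels name no UAS construct and which the titles write as vw1118 or vvw1118, and the females were the same. All groups therefore carried UAS-Dcr2 and r4-GAL4, and the RNAi rested on 1 insertion line. Diets were semi-defined food with 0.5 M or 0.15 M sucrose. The single-factor groups, EcR RNAi on 0.15 M and control on 0.5 M sucrose, each with 3 libraries, served to find genes that moved only when both factors were present. Groups are named below by genotype and sucrose concentration as labelled. Nothing in the labels says whether replicate libraries came from separate cultures, so the spread between them may be technical in part.

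Ecdysone is the steroid that times insect moults and metamorphosis. Its receptor, a heterodimer of EcR and Usp, activates a cascade of early genes such as br, Eip75B and Eip78C, and in the fat body of the last instar this programme goes with the switch from growth to storage. Fat body also responds to dietary sugar: Mondo (Mio in the table) and the factor sugarbabe (sug) link sugar to glycolytic and lipogenic enzymes, insulin and TOR signalling set growth and storage, and larvae on high-sugar food are used as a model of obesity and insulin resistance.

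Values were a normalised signal per gene that the authors deposited for 10047 genes. Reads recovered from it summed to 8524872 to 11596635 per library. On the log2(signal + 1) scale used throughout, Pearson's r across genes was 0.979 to 0.981 among EcR RNAi 0.5 M libraries, 0.969 to 0.979 among control 0.15 M libraries and 0.910 to 0.940 between the groups; genes are not independent replicates. Control 0.5 M replicate 1 was not among the 6 compared libraries. It entered each comparison with control 0.5 M, the interaction, the search for genes that moved only under both factors, and the shared variance. It differed from the rest: its signal summed to 15045600, and that of the remaining libraries to between 8864830 and 10966600. Without it the combined calls below came to 1832 higher and 1363 lower, and the genes that moved only under both factors to 470 higher and 303 lower. EcR (FBgn0000546) itself had signals of 1346, 1770.5 and 1125 in EcR RNAi 0.5 M, 1235, 1023 and 1138 in EcR RNAi 0.15 M, 1386, 1513 and 1463 in control 0.5 M and 1368, 1559 and 1214 in control 0.15 M libraries. The EcR RNAi 0.5 M and control 0.15 M libraries overlapped, the log2 difference was 0.02 ± 0.17 (SE; 95% interval -0.35 to 0.38; limma adjusted p = 0.953), and its sign turned under some scalings, so the targeted gene did not check the labels. Whether hairpin reads are counted under EcR was not tested. White (w), the eye-colour gene that VDRC insertions carry as a marker, had signals of 1694, 1698 and 1552 in EcR RNAi 0.5 M libraries, against 687, 861 and 741 in control 0.15 M libraries, without overlap. Dcr-2, driven in all groups, averaged 70626 ± 15685 in EcR RNAi 0.5 M and 56285 ± 3829 in control 0.15 M libraries (SD, n = 3 each). The fat body storage protein gene Lsp2 was high in all 6 libraries, at 929290, 859250 and 782730 in EcR RNAi 0.5 M libraries, against 663400, 630120 and 589580 in control 0.15 M libraries.

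The combination of EcR RNAi and high sugar changed a large set of fat body genes relative to the unstressed control. In limma with Benjamini-Hochberg adjustment over all genes, 2650 of 10047 genes (26.4%) passed an adjusted p of 0.05, of which 1524 (15.2% of genes) were higher and 1126 (11.2%) lower in EcR RNAi 0.5 M larvae. At least 2-fold changes were called for 1371 genes (13.6%), 740 higher and 631 lower, and at least 4-fold changes for 254 higher and 135 lower. The 3 and 3 libraries did not overlap for 4547 genes (45.3%), among them 1507 of the called higher genes and 1088 of the called lower genes. The median change over all genes was -0.02.

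Of called genes 57.5% were higher. With libraries scaled to a common upper quartile the all-gene median moved to -0.18 and the share of higher calls to 38.9% (1130 higher, 1773 lower), so directions of small changes are relative to the scaling. Without EcR RNAi 0.5 M replicate 1 the lower calls came to 719. For comparison, the diet change within EcR RNAi was called for 2451 genes (24.4%), the genotype change on 0.5 M for 1915 (19.1%), the genotype change on 0.15 M for 1125 (11.2%), the diet change in controls for 173 (1.72%) and the difference of the diet changes, an interaction term, for 394 (3.92%). These comparisons share libraries with the combined one.

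**Figure D1:**
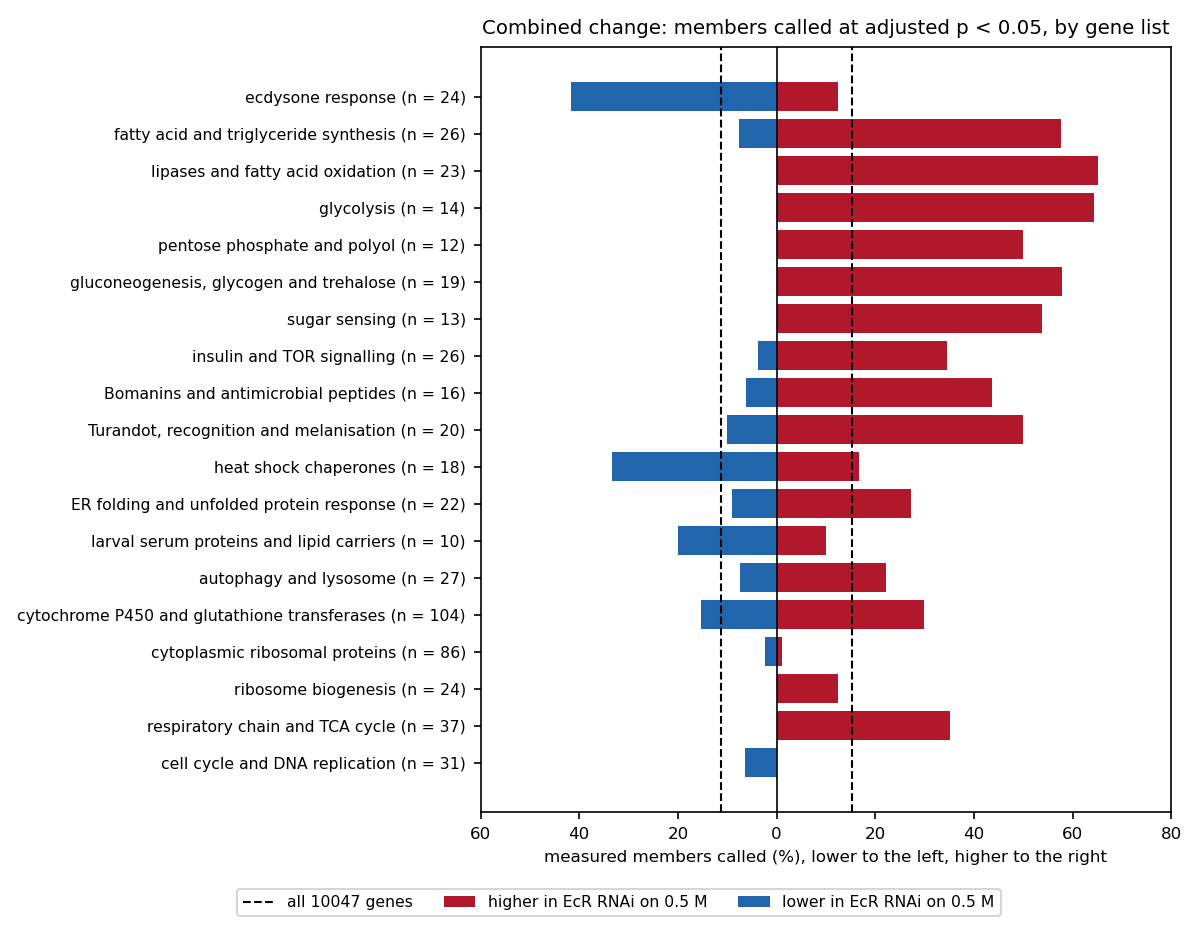
Share of measured members of 19 gene lists called in the combined change (percent, horizontal axis), with lists down the page. Red bars to the right are members higher and blue bars to the left members lower in EcR RNAi on 0.5 M than in control on 0.15 M; dashed lines mark the shares over all genes, 15.2% and 11.2%. Lists of lipid and sugar metabolism lie mostly to the right, the ecdysone and heat shock lists mostly to the left.

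Bomanins and cytochrome P450s were among the 10 genes with the largest rises, and genes of recognition, glue and immune peptides among the 10 with the largest falls. Both sets were chosen from called genes whose libraries did not overlap, so the separation stated for them follows from the choice. Bomanins are short peptides that the Toll pathway induces. The Bomanin CG16836 (BomT2, FBgn0040735) had signals of 641, 1080.5 and 1664 in EcR RNAi 0.5 M libraries, against 22.4, 5.76 and 8.20 in control 0.15 M libraries, and the Bomanin CG15068 (BomS6) 933, 1325 and 1626 in EcR RNAi 0.5 M libraries, against 24.9, 21.1 and 21.5 in control 0.15 M libraries. For both, every EcR RNAi 0.5 M library was above every control 0.15 M library. IM3 (BomS3), of the same family, had 1630, 1978 and 921 in EcR RNAi 0.5 M libraries, against 39.96, 13.7 and 33.7 in control 0.15 M libraries. The P450 Cyp4e3 had 3718, 1996 and 1866 in EcR RNAi 0.5 M libraries, against 35.01, 25.6 and 29.6 in control 0.15 M libraries, and Cyp309a2, also a P450, 277, 491 and 538 in EcR RNAi 0.5 M libraries, against 3.59, 10.9 and 6.14 in control 0.15 M libraries. Here too the groups did not overlap. CG43402 (FBgn0263321), of which no role is given here, had the largest rise, with 936, 908 and 1262 in EcR RNAi 0.5 M libraries, against 5.24, 14.1 and 2.08 in control 0.15 M libraries. The chitin-binding family gene obst-J averaged 3650.1 ± 384 in EcR RNAi 0.5 M and 45.9 ± 6.91 in control 0.15 M libraries, and CG14752 7706 ± 479 in EcR RNAi 0.5 M and 83.2 ± 7.84 in control 0.15 M libraries (SD, n = 3 each). CG1077 and CG11898, the remaining pair, are described with the genes that moved only under both factors. The 10 log2 differences ran from 5.71 to 7.27 (limma adjusted p 1.09e-13 to 8.37e-05). Apart from CG1077 and CG11898, each was also called in the genotype change on 0.15 M or the diet change in controls. EcR RNAi 0.15 M libraries averaged 1167 for CG16836, 1606 for CG15068 and 1297 for IM3, whose diet changes within EcR RNAi were not called. Cyp4e3 averaged 740 in control 0.5 M and 42.6 in EcR RNAi 0.15 M libraries.

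Among the falls, nimC2 (FBgn0028939), of the Nimrod family of phagocytic receptors, had signals of 107, 103 and 84.2 in EcR RNAi 0.5 M libraries, against 6675, 5189 and 7806 in control 0.15 M libraries. Sgs4, a salivary glue protein gene, had 85.8, 21.9 and 15.5 in EcR RNAi 0.5 M libraries, against 1305, 823 and 819 in control 0.15 M libraries, and Eig71Ea, an ecdysone-induced gene of the salivary gland, 2.02, 1.11 and 1.55 in EcR RNAi 0.5 M libraries, against 70.9, 52.2 and 36.8 in control 0.15 M libraries. No EcR RNAi 0.5 M library reached the lowest control 0.15 M library of any of these. The drosomycin-like gene dro5 (Drsl5) had 5.06, 2.30 and 13.9 in EcR RNAi 0.5 M libraries, against 540.1, 174 and 369.8 in control 0.15 M libraries, and the recognition protein gene PGRP-SB2 11.1, 6.60 and 11.9 in EcR RNAi 0.5 M libraries, against 603, 163 and 568 in control 0.15 M libraries. The scavenger receptor gene santa-maria averaged 15.3 ± 5.51 in EcR RNAi 0.5 M and 449 ± 189.6 in control 0.15 M libraries (SD, n = 3 each). CG3397, CG4842, CG9509 (fiz) and CG10459 fell as well, by log2 differences of -4.79, -5.01, -4.33 and -4.48. The 10 differences ran from -6.04 to -4.33 (limma adjusted p 3.60e-11 to 0.00268). Apart from PGRP-SB2, each of these genes was also called lower in the genotype change on 0.15 M sucrose. The diet change within EcR RNAi was called only for nimC2, CG4842 and CG10459, at -1.50, -2.46 and -1.86 (log2). Rises and falls shown here kept their call in each fit without 1 library.

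**Figure D2:**
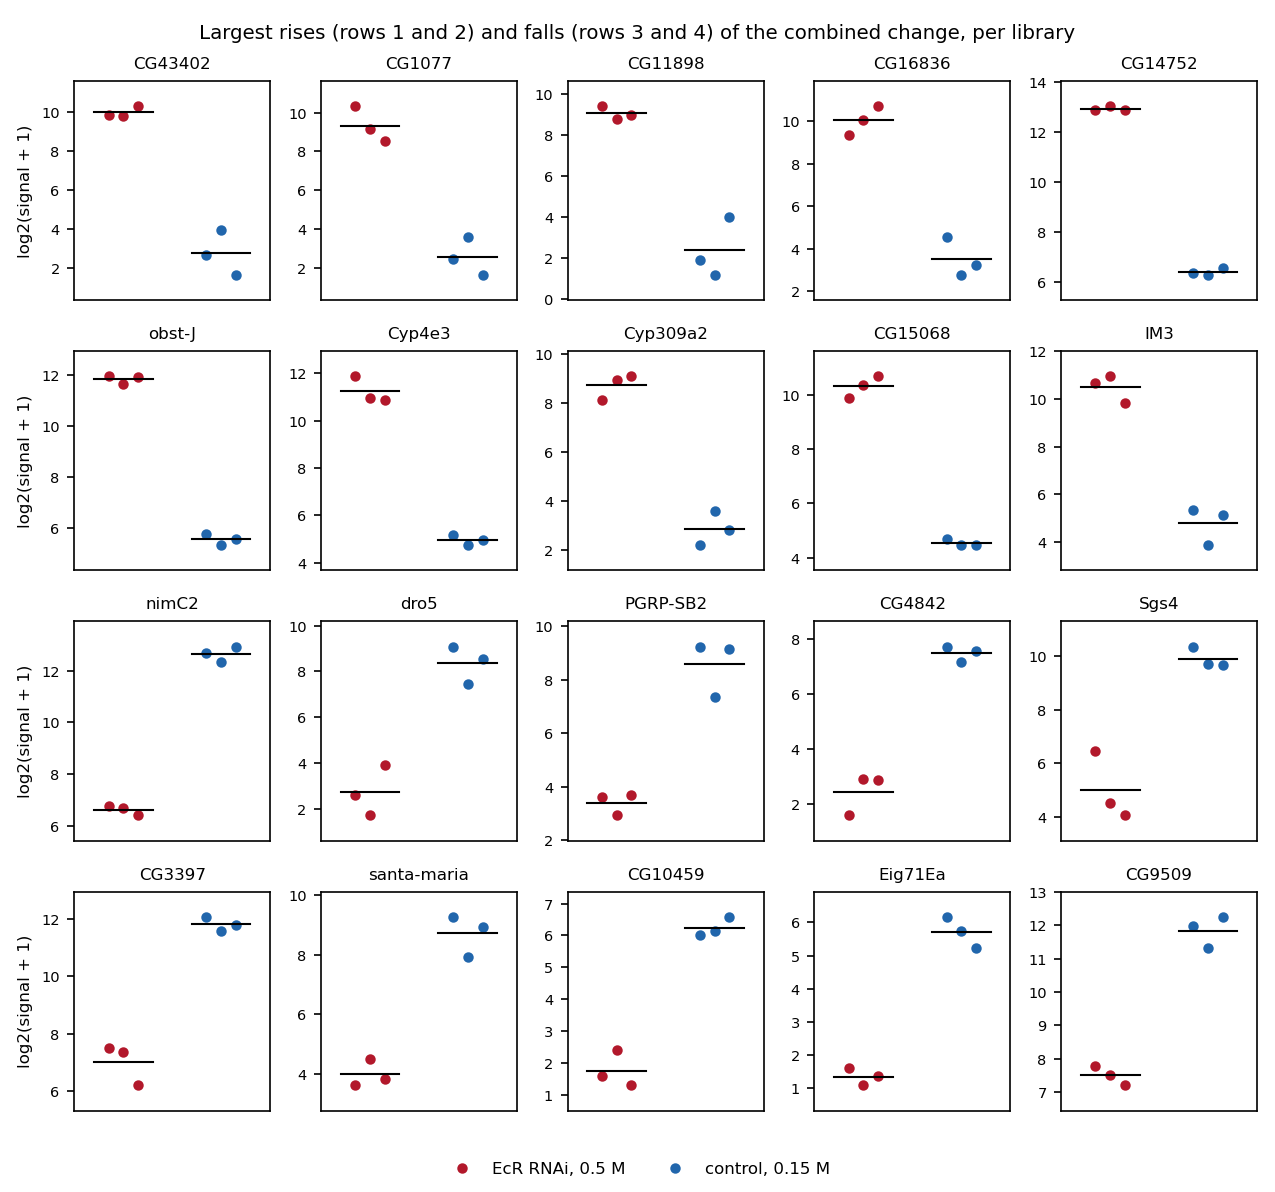
Signal of the 20 genes with the largest combined changes as log2(signal + 1), 1 panel per gene, with the 3 EcR RNAi 0.5 M libraries left of the 3 control 0.15 M libraries; points are libraries and lines group means. Rises fill the upper 2 rows and falls the lower 2. The groups overlap in no panel because genes with overlapping libraries were left out of the choice.

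Genes of lipid synthesis rose together with genes of fatty acid oxidation. Of 26 measured genes of fatty acid and triglyceride synthesis, 15 rose and 2 fell, with a median log2 difference of 0.76 against -0.02 over all genes. Over all genes 15.2% rose and 11.2% fell. ACC (FBgn0033246), acetyl-CoA carboxylase, which commits acetyl-CoA to fatty acids, had signals of 18722, 21972 and 18411 in EcR RNAi 0.5 M libraries, against 1583, 2470.2 and 1741 in control 0.15 M libraries. Malic enzyme, Men (FBgn0002719), which supplies NADPH, had 18898, 18566 and 18820 in EcR RNAi 0.5 M libraries, against 3125, 2690.3 and 1753 in control 0.15 M libraries, and acetyl-CoA synthetase, AcCoAS, 22291, 24218 and 24481 in EcR RNAi 0.5 M libraries, against 3782, 3895 and 2708 in control 0.15 M libraries. Each EcR RNAi 0.5 M library was above each control 0.15 M library. The log2 differences were 3.37 ± 0.22 for ACC, 2.94 ± 0.21 for Men and 2.79 ± 0.22 for AcCoAS (SE; limma adjusted p 1.22e-08 to 8.32e-08). CG31522, of the fatty acid elongase family, fell by 1.58 ± 0.13 (SE). Further along the pathway, members picked after their values were seen were the fatty acid synthase CG3523 (2.70), the acyltransferase fu12 (Agpat2; 3.45) and mdy, the diacylglycerol acyltransferase that makes triglyceride (1.53). ACC averaged 19702 in EcR RNAi 0.5 M, 8787 in EcR RNAi 0.15 M, 2710.2 in control 0.5 M and 1931 in control 0.15 M libraries.

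Of 23 measured genes of lipases and fatty acid oxidation, 15 rose and 0 fell, with a median of 0.69. The shares of all genes that rose and fell were 15.2% and 11.2%. Pmp70 (Abcd3), a peroxisomal fatty acyl transporter, had 1126, 1083 and 831 in EcR RNAi 0.5 M libraries, against 228, 261 and 306 in control 0.15 M libraries. Mfe2, an enzyme of peroxisomal oxidation, had 3596, 3842 and 3658 in EcR RNAi 0.5 M libraries, against 1149, 1146 and 1329 in control 0.15 M libraries. The groups did not overlap for either gene, and the log2 differences were 1.93 ± 0.15 for Pmp70 and 1.62 ± 0.17 for Mfe2 (SE; limma adjusted p 9.61e-08 to 3.19e-06). The triglyceride lipase gene bmm, picked after its value was seen, differed by 0.51 ± 0.17 (SE; limma adjusted p = 0.0357).

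Many genes that handle sugar rose, and no member of their 3 lists fell. Of 14 measured glycolysis genes 9 rose and 0 fell (median 0.76), of 12 pentose phosphate and polyol genes 6 rose and 0 fell (median 0.58), and of 19 genes of gluconeogenesis, glycogen and trehalose 11 rose and 0 fell (median 1.01). Beside these counts, 15.2% of all genes rose and 11.2% fell. Hex-C (FBgn0001187), a hexokinase that traps glucose, had signals of 246, 164 and 144 in EcR RNAi 0.5 M libraries, against 28.8, 21.2 and 26.6 in control 0.15 M libraries. PyK, pyruvate kinase at the end of glycolysis, had 5624, 5769 and 5896 in EcR RNAi 0.5 M libraries, against 2121, 1812 and 1466 in control 0.15 M libraries. Zw, glucose-6-phosphate dehydrogenase, which opens the pentose phosphate pathway and yields NADPH, had 526, 785 and 591 in EcR RNAi 0.5 M libraries, against 80.7, 129.7 and 110.3 in control 0.15 M libraries. In all of them the groups were apart. Pgd, the next dehydrogenase of that pathway, and Tal, transaldolase, differed by 1.62 ± 0.21 and 0.99 ± 0.22 (log2, SE), and CG6084 (Akr1B), an aldo-keto reductase of the polyol route, by 1.47 ± 0.25. The log2 differences of Hex-C, PyK and Zw were 2.78 ± 0.22, 1.69 ± 0.18 and 2.56 ± 0.19 (SE; limma adjusted p 5.51e-08 to 0.00279 over these and the other members named).

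The glycerol phosphate shuttle enzymes Gpo-1 and Gpdh led the gluconeogenic list. Gpo-1 (FBgn0022160) had signals of 684, 557 and 803 in EcR RNAi 0.5 M libraries, against 88.1, 93.2 and 86.8 in control 0.15 M libraries, and Gpdh 3864, 2954 and 2930.2 in EcR RNAi 0.5 M libraries, against 673, 502 and 361 in control 0.15 M libraries. Pepck, phosphoenolpyruvate carboxykinase of gluconeogenesis, had 81448, 75196 and 68322 in EcR RNAi 0.5 M libraries, against 16095, 15155 and 16816 in control 0.15 M libraries. None of them overlapped between groups. CG33138 (AGBE), the glycogen branching enzyme, averaged 10785 ± 911 in EcR RNAi 0.5 M and 2519 ± 557 in control 0.15 M libraries, and Tps1, which makes trehalose, the main blood sugar of flies, 18088 ± 998 in EcR RNAi 0.5 M and 4157 ± 627 in control 0.15 M libraries (SD, n = 3 each; Tps1 was picked after its value was seen). The log2 differences were 2.90 ± 0.22 for Gpo-1, 2.70 ± 0.23 for Gpdh, 2.22 ± 0.23 for Pepck, 2.12 ± 0.23 for CG33138 and 2.13 ± 0.24 for Tps1 (SE; limma adjusted p 7.48e-08 to 3.96e-06).

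**Figure D3:**
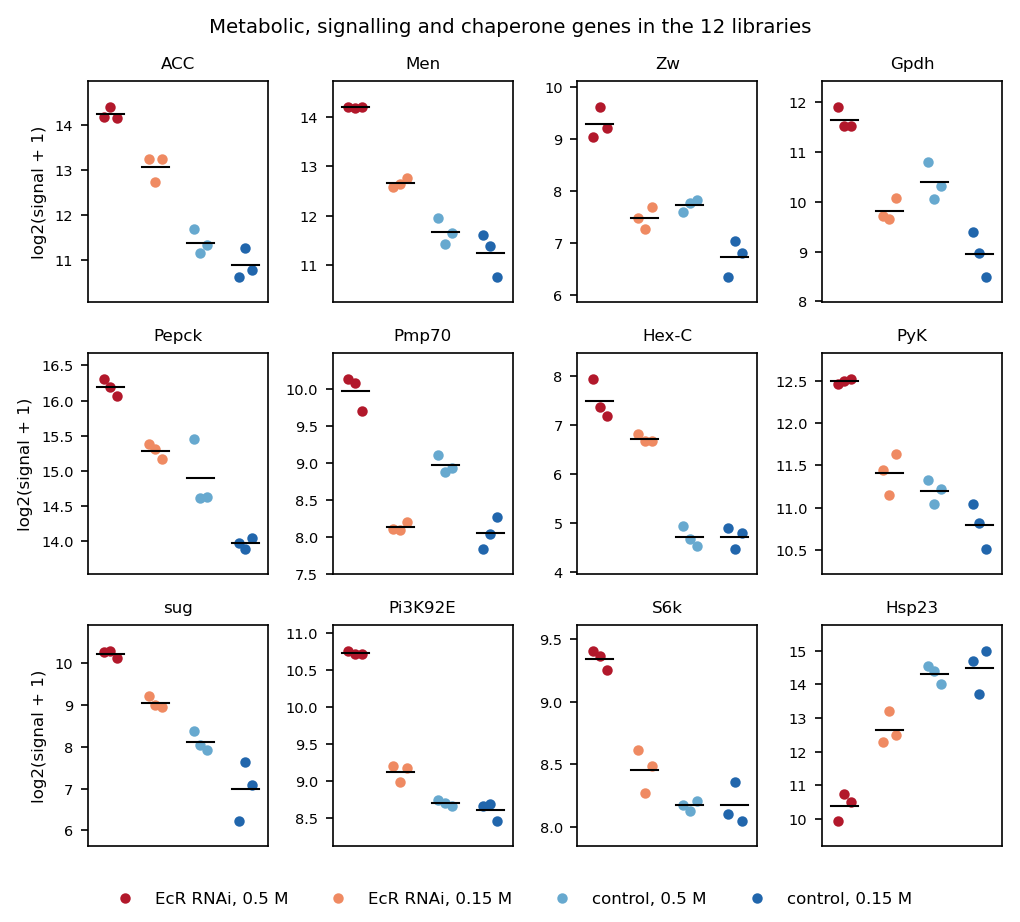
Signal of 12 metabolic, signalling and chaperone genes as log2(signal + 1) in the 12 libraries, with EcR RNAi 0.5 M at the left of each panel, then EcR RNAi 0.15 M, control 0.5 M and control 0.15 M; points are libraries and lines group means. EcR RNAi 0.5 M is at the top in all panels but Hsp23, where it is at the bottom (mean 1382 against 24402 in control 0.15 M).

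Factors that sense sugar rose in part. Of 13 measured, 7 rose and 0 fell (median 0.39), against 15.2% and 11.2% of all genes. sug (FBgn0033782) had signals of 1229, 1261 and 1110.5 in EcR RNAi 0.5 M libraries, against 74.1, 199 and 135 in control 0.15 M libraries, and Mio (Mondo, FBgn0032940) 2058, 1580.1 and 1408 in EcR RNAi 0.5 M libraries, against 588, 617 and 557 in control 0.15 M libraries. The nuclear receptor genes Hnf4, which is linked to glucose and lipid use, and svp differed by 0.79 ± 0.15 and 0.75 ± 0.16 (log2, SE), and sug and Mio by 3.24 ± 0.26 and 1.50 ± 0.18 (limma adjusted p 7.04e-07 to 0.002). Groups did not overlap for any of these. Of the risen members, 5 moved only under both factors: Mio, cbt, Sik3, Hnf4 and svp. sug did not, with means of 1200.3 in EcR RNAi 0.5 M, 534 in EcR RNAi 0.15 M, 278 in control 0.5 M and 136 in control 0.15 M libraries, each single-factor change being called.

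Among insulin and TOR genes more rose than fell: of 26 measured, 9 rose and 1 fell (median 0.23; 0.07 under upper-quartile scaling, with 7 higher and 2 lower). Over all genes 15.2% rose and 11.2% fell in the main fit. Pi3K92E (FBgn0015279), the catalytic subunit of the PI3 kinase that carries the insulin signal, had signals of 1741, 1681 and 1687 in EcR RNAi 0.5 M libraries, against 402, 411 and 350.5 in control 0.15 M libraries. S6k, a kinase target of TOR, had 679.7, 661 and 609 in EcR RNAi 0.5 M libraries, against 274, 327 and 264 in control 0.15 M libraries, and Sesn (sestrin), an inhibitor of TOR, 1522, 1569 and 1278 in EcR RNAi 0.5 M libraries, against 629.9, 667 and 693 in control 0.15 M libraries. The amino acid transporter gene path averaged 2092 ± 441 in EcR RNAi 0.5 M and 624 ± 130.3 in control 0.15 M libraries (SD, n = 3 each). The list's risen members held both activators and inhibitors of the pathway. Log2 differences were 2.14 ± 0.13 for Pi3K92E, 1.74 ± 0.18 for path, 1.17 ± 0.14 for S6k and 1.13 ± 0.15 for Sesn (SE; limma adjusted p 6.63e-09 to 3.15e-05). foxo, the transcription factor that insulin restrains, fell by 0.71 ± 0.14 (SE); its target Thor had a difference of 0.05 ± 0.24 and the insulin-like peptide gene Ilp6 one of -0.01 ± 0.16, neither past the test (limma adjusted p = 0.901 and 0.961; 95% intervals -0.46 to 0.56 and -0.35 to 0.32). These 3 were picked after their values were seen.

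Ecdysone response genes fell more often than they rose: of 24 measured, 3 rose and 10 fell (median -0.47). Of all genes 15.2% rose and 11.2% fell, so rises were no more frequent in the list than over all genes. E23 (FBgn0020445), an ecdysone-induced transporter, had signals of 175, 193 and 183 in EcR RNAi 0.5 M libraries, against 900.4, 765 and 1250.5 in control 0.15 M libraries. Eip78C and Eip75B, nuclear receptors of the early response, had 106, 135 and 117 in EcR RNAi 0.5 M libraries, against 592, 410.0 and 581 in control 0.15 M libraries for Eip78C and 655, 742 and 894 in EcR RNAi 0.5 M libraries, against 2047, 1951 and 2769 in control 0.15 M libraries for Eip75B. Every EcR RNAi 0.5 M library lay below every control 0.15 M library. The log2 differences were -2.37 ± 0.18 for E23, -2.12 ± 0.17 for Eip78C, -1.55 ± 0.17 for Eip75B and -1.21 ± 0.18 for br (SE; limma adjusted p 7.46e-08 to 7.77e-05). The risen members were ftz-f1, the nuclear receptor of the mid-prepupal stage (1.66), ImpL1 (2.02) and ImpL2 (1.17), named because they were few. On 0.15 M sucrose EcR RNAi against control lowered 10 list members and raised 1, while over all 10047 genes it lowered 503 and raised 622. No member was called in the diet change of controls, which was called for 1.72% of all genes.

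Markers of tissues that lie near the fat body moved too. Of 8 measured salivary gland markers 0 rose and 7 fell (median -2.85); their summed signal was 1902 to 6950.5 in EcR RNAi 0.5 M and 20235 to 23891 in control 0.15 M libraries. Sgs3 and Eig71Ee had log2 differences of -2.26 ± 0.43 and -4.21 ± 0.77 (SE). Of 7 measured ring gland markers, genes of the gland that makes ecdysone, 1 rose and 4 fell, while their summed signal was 7081 to 8522 in EcR RNAi 0.5 M and 942 to 1288 in control 0.15 M libraries. For both lists the shares of all genes to set beside these counts are 15.2% higher and 11.2% lower. The ring gland sum followed sad, the enzyme that makes ecdysone from its direct precursor, which had signals of 7360.4, 6512 and 7988 in EcR RNAi 0.5 M libraries, against 199, 155 and 304 in control 0.15 M libraries, a log2 difference of 5.10 ± 0.24 (SE). spok, phm and nvd, enzymes of earlier steps, fell, with log2 differences of -3.54 ± 0.44, -1.88 ± 0.31 and -2.11 ± 0.61 (SE), as did Ptth (-1.63), a brain hormone gene. In bulk tissue, fewer cells of a type and less RNA per cell cannot be told apart, and the part of carried-over tissue in the ecdysone result was not tested.

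Immune genes moved in both directions, more of them up than down. Of 16 measured Bomanins and antimicrobial peptides 7 rose and 1 fell (median 1.07), and of 20 Turandot, recognition and melanisation genes 10 rose and 2 fell (median 0.61). A further 16 and 6 listed members were not found by name among the 10047 genes. Those of the first list included several Bomanins, CecA1, CecA2, CecB and Def. Of all genes 15.2% rose and 11.2% fell. Drs (drosomycin, FBgn0010381), the antifungal peptide induced by Toll, had signals of 7902, 11005 and 6909 in EcR RNAi 0.5 M libraries, against 783, 599 and 456 in control 0.15 M libraries. PGRP-SC2, which degrades peptidoglycan, had 7495, 10511 and 9162 in EcR RNAi 0.5 M libraries, against 539, 407 and 611 in control 0.15 M libraries, and TotA, a secreted stress peptide, 30904, 35171 and 37218 in EcR RNAi 0.5 M libraries, against 7154, 4598 and 3293 in control 0.15 M libraries. Groups did not overlap. Log2 differences were 3.82 ± 0.24 for Drs, 3.94 ± 0.50 for CG15065, 4.13 ± 0.25 for PGRP-SC2, 2.11 ± 0.14 for PGRP-LB, 2.62 ± 0.20 for GNBP1 and 2.85 ± 0.27 for TotA (SE; limma adjusted p 1.18e-08 to 3.10e-05); CG15065 is the Bomanin BomS5, PGRP-LB an amidase that damps the Imd pathway and GNBP1 a recognition protein of Toll. No member of either list moved only under both factors: EcR RNAi against control on 0.15 M already raised 9 of the first list and 10 of the second. Over all 10047 genes that comparison raised 622. Of 12 measured hemocyte markers, 1 rose and 1 fell, Pxn (peroxidasin, 1.81) and lz (lozenge, -1.10), shares below those of all genes. Their summed signal was 9688 to 11797 in EcR RNAi 0.5 M and 6435 to 9813 in control 0.15 M libraries. The part of hemocytes in the immune result was not tested.

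Several small heat shock chaperones fell. Of 18 measured heat shock genes 3 rose and 6 fell (median -0.61), against 15.2% and 11.2% of all genes. Hsp23 (FBgn0001224), a small chaperone that ecdysone induces, had signals of 985, 1711 and 1449.7 in EcR RNAi 0.5 M libraries, against 26816, 13446 and 32943 in control 0.15 M libraries, and Hsp27 266, 359.6 and 291 in EcR RNAi 0.5 M libraries, against 1079.7, 863 and 1753 in control 0.15 M libraries. No library of the groups overlapped. The log2 differences were -4.08 ± 0.33 for Hsp23, -1.96 ± 0.28 for Hsp27 and -1.83 ± 0.29 for Hsp67Bc (SE; limma adjusted p 3.63e-07 to 3.63e-04), and Hsp70Bb, one of several near-identical Hsp70 copies among which reads may be split, rose by 0.83 ± 0.15. Of 22 genes of protein folding in the endoplasmic reticulum 6 rose and 2 fell; the median was 0.08, and -0.08 under upper-quartile scaling. The count of rises came to 3 under upper-quartile scaling, 3 (with 4 falls) under quantile normalisation, 3 without EcR RNAi 0.5 M replicate 1 and 3 without control 0.15 M replicate 3, so no direction is given for the list. Xbp1 and Ire1, transcription factor and sensor of the unfolded protein response, differed by 1.18 ± 0.19 and 0.69 ± 0.13, prtp by 0.73 ± 0.15 and wbl by -1.64 ± 0.28 (log2, SE; limma adjusted p 1.86e-04 to 0.00194).

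Few storage genes were called. Of 10 measured genes of larval serum proteins and lipid carriers 1 rose and 2 fell (median 0.21), shares near the 15.2% and 11.2% of all genes that rose and fell. Lsp1alpha (FBgn0002562), a subunit of a hexameric storage protein, had signals of 72790, 51650 and 28527 in EcR RNAi 0.5 M libraries, against 289540, 276950 and 166030 in control 0.15 M libraries, without overlap, while its partner Lsp1beta, picked after its value was seen, averaged 459900 ± 79586 in EcR RNAi 0.5 M and 325683 ± 54013 in control 0.15 M libraries (SD, n = 3 each; limma adjusted p = 0.213). Fbp1, the receptor that takes storage proteins back up, fell by 1.08 ± 0.32 (log2, SE), a call kept in 8 of 12 fits without 1 library and lost without EcR RNAi 0.5 M replicate 1 or 3 or control 0.15 M replicate 1 or 3. CG15828 (Apoltp), a lipid transfer particle protein, rose by 1.22 ± 0.21. Of 27 autophagy and lysosome genes 6 rose and 2 fell, with a median of 0.13, and -0.04 under upper-quartile scaling. Atg7, the enzyme that starts both conjugation systems of autophagy, had 127, 103 and 109 in EcR RNAi 0.5 M libraries, against 966, 603 and 834 in control 0.15 M libraries. Cp1 (CtsL1) and CtsB1, lysosomal cathepsins, rose by 2.57 ± 0.21 and 1.06 ± 0.18, and Atg4, a protease of the same systems, by 1.58 ± 0.15 (log2, SE; limma adjusted p 1.07e-07 to 2.72e-04 over these members).

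Growth and energy genes differed by list. Of all genes 15.2% rose and 11.2% fell, and the ribosomal protein, ribosome biogenesis and cell cycle lists lay below both shares. Of 37 measured genes of the respiratory chain and TCA cycle 13 rose and 0 fell (median 0.32); under quantile normalisation 7 were higher and 2 lower, and 6 were higher without EcR RNAi 0.5 M replicate 1, 8 without control 0.15 M replicate 2 and 8 with voom. All members named are TCA cycle enzymes: Nc73EF (oxoglutarate dehydrogenase) rose by 1.14 ± 0.15, SdhA (succinate dehydrogenase) by 0.68 ± 0.13, and l(1)G0156 and CG5028 (isocitrate dehydrogenase subunits) by 0.84 ± 0.18 and 0.79 ± 0.17 (log2, SE; limma adjusted p 3.19e-05 to 0.00231). Of 86 cytoplasmic ribosomal protein genes 1 rose and 2 fell (median 0.24, -0.10 under quantile normalisation), namely RpS10b (0.77), RpS19b (-1.59) and RpL41 (-0.72), whose calls were kept in 8, 8 and 7 of 12 fits without 1 library. Without control 0.5 M replicate 1 the list's counts were 29 higher and 3 lower. Of 24 ribosome biogenesis genes 3 rose and 0 fell (median -0.12), CG4364, ns2 and dm (Myc), by 0.87, 0.61 and 0.49; under upper-quartile scaling 2 were higher and 5 lower, and dm lost its call. Of 31 cell cycle and DNA replication genes 0 rose and 2 fell (median -0.14), RnrS (-0.80) and Mcm3 (-0.52); under upper-quartile scaling 8 were lower.

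A gene was said to move only under both factors if its combined change, its diet change within EcR RNAi and its genotype change on 0.5 M sucrose were all called in 1 direction, and neither its genotype change on 0.15 M nor its diet change in controls was called. By this rule 665 genes moved, 25.1% of the called genes: 400 higher (3.98% of genes) and 265 lower (2.64%). Missing a threshold in the single-factor groups does not show that a gene stayed still there, so the interaction, the diet change in EcR RNAi minus that in control, was tested as well. It was called for 200 of the 665 (30.1%), 125 higher (1.24% of genes) and 75 lower (0.746%). The genes were chosen by these calls, so their values are a description. Leaving out single libraries moved the counts: without EcR RNAi 0.5 M replicate 1 there were 227 higher and 127 lower, and 250 genes kept the status in every one of the 12 fits without 1 library. Upper-quartile scaling gave 219 higher and 450 lower. Muscle markers moved with 1 of the changes the rule uses: 11 of 15 were higher in the diet change within EcR RNAi (median log2 1.67). Of all 10047 genes, 1406 were called higher and 1045 lower there. The summed signal of the muscle markers was 43800.4 to 90571 in EcR RNAi 0.5 M and 10094 to 32626 in EcR RNAi 0.15 M libraries. None met the rule, and the part of muscle in these results was not tested.

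**Figure D4:**
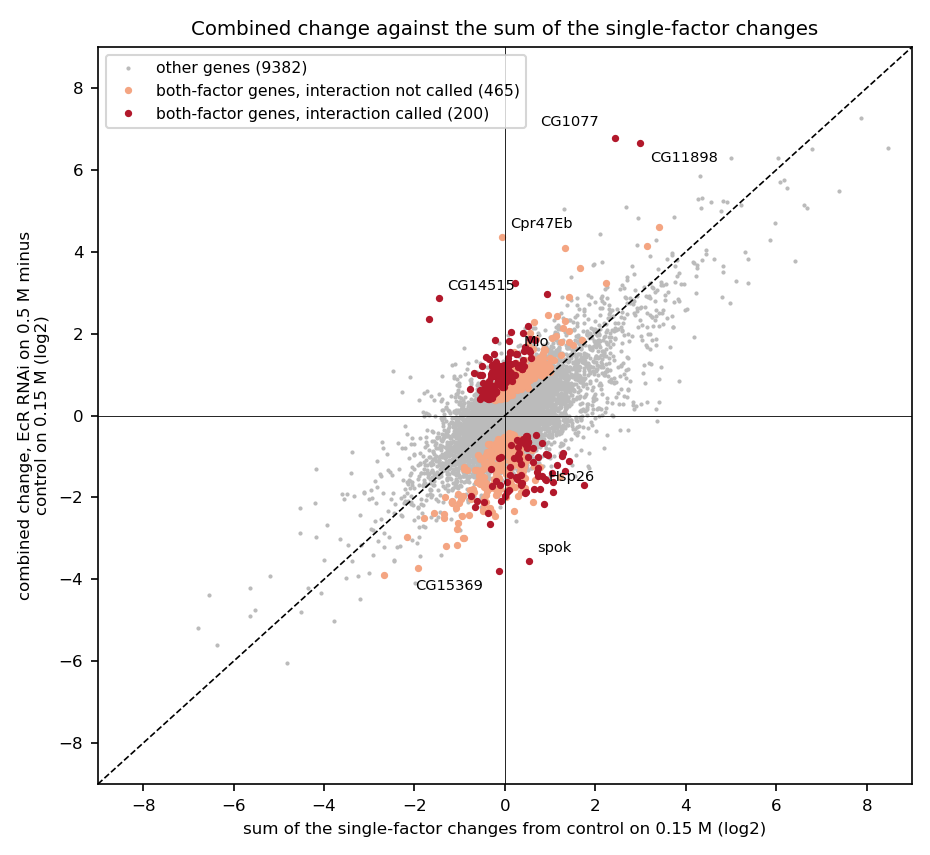
Combined change of each gene (vertical axis, log2) against the sum of its genotype change on 0.15 M sucrose and its diet change in controls (horizontal axis, log2); the dashed line marks equality. Pale red points are the 465 genes that moved only under both factors without a called interaction, dark red points the 200 with one, and grey points all other genes; CG1077 and CG11898 have the largest combined rises of these genes, and CG15369 and spok lie below the line. All 3 changes share the control 0.15 M libraries.

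Each of the 8 leading rises of this kind had a lower mean in the other 3 groups, which follows from the rule. CG1077 (FBgn0037405) had signals of 1278, 558 and 364 in EcR RNAi 0.5 M, 21.9, 12.2 and 4.03 in EcR RNAi 0.15 M, 17.1, 12.1 and 16.8 in control 0.5 M and 4.51, 10.9 and 2.07 in control 0.15 M libraries. CG11898 (FBgn0039645) had 665, 436 and 496 in EcR RNAi 0.5 M, 36.2, 14.9 and 14.1 in EcR RNAi 0.15 M, 8.19, 7.21 and 13.4 in control 0.5 M and 2.79, 1.27 and 15.2 in control 0.15 M libraries. In both, no library of the other 3 groups reached the EcR RNAi 0.5 M libraries. Cpr47Eb, a cuticle protein gene, had 263, 43.9 and 251 in EcR RNAi 0.5 M, 3.47, 5.60 and 11.04 in EcR RNAi 0.15 M, 10.1, 4.83 and 3.42 in control 0.5 M and 3.43, 23.8 and 2.09 in control 0.15 M libraries. CG14515 had 72.7, 15.5 and 34.95 in EcR RNAi 0.5 M, 5.44, 2.81 and 1.01 in EcR RNAi 0.15 M, 1.58, 1.65 and 0.850 in control 0.5 M and 4.68, 2.30 and 5.10 in control 0.15 M libraries. Its single-factor groups were no higher on average than the controls. CG9451 averaged 169 in EcR RNAi 0.5 M, 22.7 in EcR RNAi 0.15 M, 15.5 in control 0.5 M and 17.1 in control 0.15 M libraries, and CG5697 908 in EcR RNAi 0.5 M, 96.6 in EcR RNAi 0.15 M, 109 in control 0.5 M and 208 in control 0.15 M. CG7299 averaged 232 in EcR RNAi 0.5 M, 30.3 in EcR RNAi 0.15 M, 24.7 in control 0.5 M and 6.54 in control 0.15 M libraries, and the P450 Cyp4aa1 118 in EcR RNAi 0.5 M, 5.84 in EcR RNAi 0.15 M, 5.78 in control 0.5 M and 2.86 in control 0.15 M. The EcR RNAi 0.5 M libraries had 468, 129 and 98.2 for CG7299 and 133, 8.10 and 212 for Cyp4aa1. For Cyp4aa1 the lowest of them lay below an EcR RNAi 0.15 M library at 10.9. CG11898 lost this status under upper-quartile scaling, and CG7299 without EcR RNAi 0.5 M replicate 1. Cyp4aa1 lost it under upper-quartile scaling and with voom, kept it in 1 of 12 fits without 1 library, and its combined call was lost without EcR RNAi 0.5 M replicate 1 (log2 3.54). The interaction was called for CG1077, CG11898, CG14515, CG9451 and CG5697, with log2 values of 4.33 ± 0.87, 3.68 ± 0.85, 4.32 ± 0.80, 2.99 ± 0.36 and 4.04 ± 0.70 (SE; limma adjusted p 5.49e-04 to 0.0362). For Cpr47Eb it was 4.43 ± 1.20 (limma adjusted p = 0.0654).

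Among the 8 leading falls was spok (FBgn0086917, spookier), an ecdysone synthesis enzyme of the ring gland, with signals of 4.05, 5.42 and 6.34 in EcR RNAi 0.5 M, 93.8, 191 and 133 in EcR RNAi 0.15 M, 22.96, 79.8 and 90.5 in control 0.5 M and 101, 61.2 and 58.3 in control 0.15 M libraries. CG15369 (FBgn0030105) had 314, 1081 and 456 in EcR RNAi 0.5 M, 4535, 6050.5 and 4401 in EcR RNAi 0.15 M, 18027, 7059 and 8388 in control 0.5 M and 10094, 7999 and 5140.1 in control 0.15 M libraries. CG1732 (Gat), a GABA transporter gene, had 51.5, 64.9 and 42.7 in EcR RNAi 0.5 M, 260.4, 361 and 379.5 in EcR RNAi 0.15 M, 311, 243 and 244 in control 0.5 M and 447, 356 and 229 in control 0.15 M libraries. All EcR RNAi 0.5 M values were the lowest of the 12. lectin-24Db, a C-type lectin gene, had 15.2, 15.3 and 28.7 in EcR RNAi 0.5 M, 61.8, 251 and 109 in EcR RNAi 0.15 M, 66.2, 137 and 93.6 in control 0.5 M and 145, 74.7 and 88.9 in control 0.15 M libraries. CR43344, annotated as a long non-coding RNA that hosts the microRNA let-7, averaged 10.4 in EcR RNAi 0.5 M, 70.2 in EcR RNAi 0.15 M, 43.7 in control 0.5 M and 82.6 in control 0.15 M libraries. CG12951, CG15905 and CR43920 had combined log2 differences of -3.72 ± 0.64, -2.98 ± 0.54 and -3.88 ± 0.45 (SE). Their genotype changes on 0.15 M were -0.87, -0.38 and -1.18, and their diet changes in controls -1.04, -0.53 and -1.49 (log2). None of these single-factor falls was called, nor was the interaction (limma adjusted p 0.139 to 0.286). CG12951, CR43920 and lectin-24Db lost the status with voom on recovered reads. The interaction was called for CG15369, spok and CG1732, at -3.65 ± 0.67, -4.08 ± 0.62 and -2.30 ± 0.33 (log2, SE; limma adjusted p 0.002 to 0.0177). It was not called for lectin-24Db or CR43344 (limma adjusted p = 0.0636 and 0.134).

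**Figure D5:**
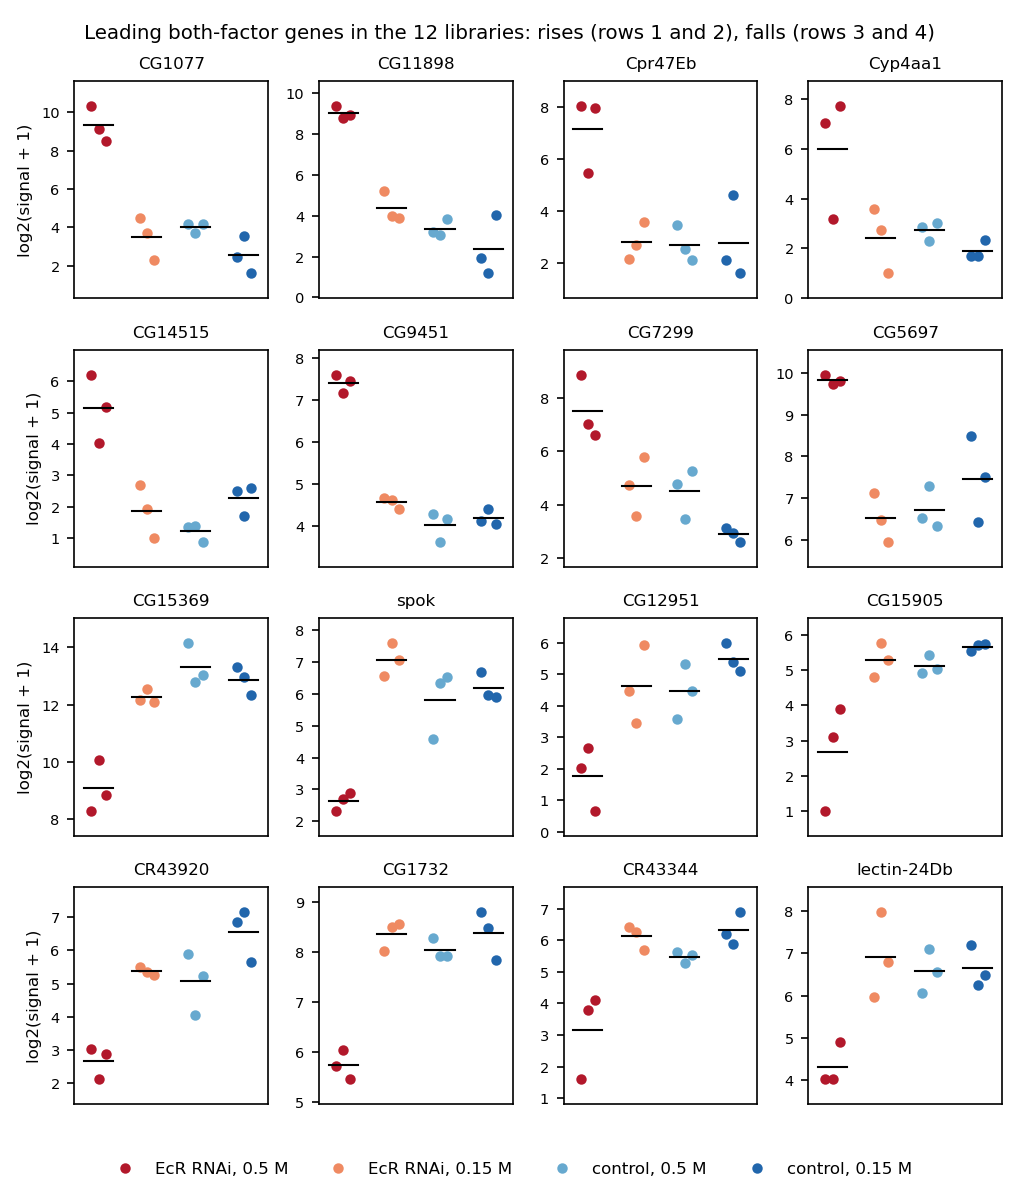
Signal of the 16 leading genes that moved only under both factors as log2(signal + 1) in the 12 libraries, with EcR RNAi 0.5 M at the left of each panel, then EcR RNAi 0.15 M, control 0.5 M and control 0.15 M. Points are libraries and lines group means. The upper 2 rows hold the rises and the lower 2 the falls. In every panel the EcR RNAi 0.5 M mean stands apart from the other 3 because the genes were chosen for that.

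Signalling genes of the lists above were among them. Of 26 measured insulin and TOR genes 7 were higher only under both factors (4 with a called interaction), against 3.98% (1.24%) of all genes: ImpL2, S6k, rictor, gig, Sesn, CG13624 (REPTOR) and step. The 7 came to 4 without EcR RNAi 0.5 M replicate 1, 4 with 1 lower under upper-quartile scaling, and 2 with 1 lower under quantile scaling, where Sesn lost the status. S6k averaged 649.8 in EcR RNAi 0.5 M, 351 in EcR RNAi 0.15 M, 287 in control 0.5 M and 288 in control 0.15 M libraries, and Sesn 1456 in EcR RNAi 0.5 M, 859.9 in EcR RNAi 0.15 M, 538 in control 0.5 M and 663 in control 0.15 M. CG13624, a transcription factor that TOR restrains, averaged 668 in EcR RNAi 0.5 M, 328 in EcR RNAi 0.15 M, 305 in control 0.5 M and 293 in control 0.15 M. The interaction was 0.89 ± 0.19 for S6k and 1.07 ± 0.21 for Sesn (log2, SE). Pi3K92E also had a called interaction (1.52 ± 0.18), but its genotype change on 0.15 M was called too. Of 13 sugar-sensing genes 5 were higher only under both factors, 2 without EcR RNAi 0.5 M replicate 1, and 3 under upper-quartile and 3 under quantile scaling. Mio averaged 1682 in EcR RNAi 0.5 M, 543 in EcR RNAi 0.15 M, 762 in control 0.5 M and 587 in control 0.15 M libraries, with an interaction of 1.26 ± 0.25, and svp 1093 in EcR RNAi 0.5 M, 574 in EcR RNAi 0.15 M, 647 in control 0.5 M and 651 in control 0.15 M, with 0.93 ± 0.22. The limma adjusted p of these interactions ran from 5.02e-04 to 0.0304.

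Chaperones moved the other way. Of 18 heat shock genes 4 were lower only under both factors (3 with a called interaction), against 2.64% (0.746%) of all genes: Hsp26, Hsp27, Hsp67Bc and Hsp68. Hsp27 averaged 305 in EcR RNAi 0.5 M, 1163 in EcR RNAi 0.15 M, 1264 in control 0.5 M and 1232 in control 0.15 M libraries, with an interaction of -1.96 ± 0.39, and Hsp26 492 in EcR RNAi 0.5 M, 2316 in EcR RNAi 0.15 M, 2409.9 in control 0.5 M and 1749.9 in control 0.15 M. Hsp23 had a called interaction of -2.10 ± 0.46 on top of a called genotype change on 0.15 M. Of 7 ring gland markers, spok, phm and nvd were lower only under both factors, and the interaction of sad, 2.42 ± 0.33, had the opposite sign to those of spok and phm, -4.08 ± 0.62 and -2.34 ± 0.44 (log2, SE; limma adjusted p 0.00181 to 0.0242 over these interactions). Without control 0.5 M replicate 1, spok and phm lost the status. nvd kept it in 6 of 12 fits without 1 library, and lost it without EcR RNAi 0.5 M replicate 1, under quantile scaling and with voom; phm lost it with voom as well. Hsp67Bc lost it without EcR RNAi 0.5 M replicate 1 and with voom, where the count of heat shock genes came to 3 and 2.

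In metabolism a few genes moved only under both factors, and the leading members were called under single factors as well. Of all genes 3.98% were higher only under both factors, and 1.24% with a called interaction. In glycolysis (2 of 14 measured) these were Pfk, the committed step, and Pfrx, which makes its activator: Pfrx averaged 1092 in EcR RNAi 0.5 M, 444 in EcR RNAi 0.15 M, 466 in control 0.5 M and 440.4 in control 0.15 M libraries, with an interaction of 1.23 ± 0.26 (log2, SE; limma adjusted p = 0.0179). In lipid synthesis (3 of 26 measured) they were Lpin (lipin), Seipin and v(2)k05816 (FASN2), with combined log2 differences of 1.17, 1.71 and 2.13. In gluconeogenesis and glycogen (2 of 19 measured) they were CG10924 (Pepck2, 1.31) and CG6904 (glycogen synthase, 1.05). In the respiratory and TCA list (5 of 37 measured) they were SdhA, SdhB, l(1)G0156, CG5028 and CG6439, at 0.68, 0.67, 0.84, 0.79 and 0.57. The interaction was called for none of these members of the lipid synthesis, gluconeogenesis and TCA lists. Men and Gpo-1 had called interactions of 1.11 ± 0.30 and 1.50 ± 0.31, with means of 681 in EcR RNAi 0.5 M, 74.3 in EcR RNAi 0.15 M, 301 in control 0.5 M and 89.4 in control 0.15 M libraries for Gpo-1; a single factor changed each of them. The counts depended on scaling and on 1 library. The 5 members of the respiratory and TCA list came to 2 (and 1 lower) under upper-quartile scaling, 0 under quantile scaling and 0 without EcR RNAi 0.5 M replicate 1. The 3 of lipid synthesis came to 2, 2 and 2 in the same order, and the 2 of gluconeogenesis and glycogen to 1, 2 and 1; Pfk lost the status without EcR RNAi 0.5 M replicate 1.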

How the data were processed

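RNA of 12 larval fat body libraries was sequenced on an Illumina HiSeq instrument after removal of ribosomal RNA, per the labels' protocols. The authors deposited 1 table of a normalised signal per gene and library. Tools listed in the submitters' processing notes, with no roles, are edgeR, Cufflinks 1.1.0, Bowtie 0.12.7 and TopHat 1.3.2; the build, annotation, strandedness and gene filter are not given in the sources used here, so no coordinates and no sequences are printed. No value was 0, and the lowest was 0.0933.

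The values looked like read counts brought to equal library sizes by quantile adjustment. Undoing this with a single scale for every library, each gene's group mean and a dispersion of 0.043 turned 94.9% to 100% of values between 5 and 40 into whole reads within 0.05. The dispersion was chosen after the data were seen, to make the library with the largest signal sum most nearly whole, and how the values were made is inferred from them alone. No interval from reads was used, and such an adjustment can alter the spread between libraries.

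The main test was limma 3.58.1 in R 4.3.3 on log2(signal + 1), with 1 model of 4 groups over all 12 libraries, trended and robust variance estimates, and Benjamini-Hochberg adjustment over the 10047 genes, all with a mean of at least 1. Because of the pseudocount of 1, changes at low signal are understated; the mean was below 10 for 928 genes. A count model planned for raw counts was not used because the table held none. Calls need an adjusted p under 0.05. Named genes were the 10 largest called rises and falls with separate libraries and a higher group mean of at least 10, the 8 leading genes in each direction that moved only under both factors, up to 4 called members with the smallest p per list, and EcR, w and Dcr-2; some that the rule names are not reported here. Rank among the leading genes that moved only under both factors was by the smallest of their 3 changes. Members and the 19 pathway and 9 marker lists were chosen with earlier results of these data known. Of the gene IDs 9605 matched current names in the RefSeq and Ensembl tables; symbols are the table's, with the current one in brackets. Alternatives were a pseudocount of 10, a mean of at least 10, no filter, upper-quartile and quantile scaling, library weights, the 6 libraries alone, a replicate block, each library left out and, added after the data were seen, voom on recovered reads. The fit was tested on simulated data: larger simulated differences were mostly recovered and smaller ones less often, and the first criterion for passing was missed and replaced by others, with the fit unchanged.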

Additional observations from a re-analysis of the deposited data

Results flagged for a closer look

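The genes named by the rule whose diet change differed between EcR RNAi and control larvae come first here, by the limma interaction term with Benjamini-Hochberg adjustment over all genes (adjusted p 5.02e-04 to 0.0478, 3 libraries in each of 4 groups). Values are log2, the diet change in EcR RNAi minus that in control. Of the genes whose diet change was higher in EcR RNAi, the leading members moved only under both factors: 4.33 for CG1077, 4.32 for CG14515, 4.04 for CG5697, 3.68 for CG11898 and 2.99 for CG9451. Metabolic genes gave 1.50 for Gpo-1, 1.23 for Pfrx, 1.11 for Men and 0.92 for Pmp70. Sugar-sensing and signalling genes gave 1.52 for Pi3K92E, 1.26 for Mio, 1.07 for Sesn, 0.93 for svp and 0.89 for S6k. The steroid synthesis gene sad gave 2.42. Members of the lists that the report mentions outside that rule gave 1.79 for Ilp6, 1.75 for Thor, 0.96 for bmm, 0.91 for gig and 0.78 for step (limma adjusted p 5.81e-04 to 0.0388).

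Negative differences, the diet change being lower in EcR RNAi, were -4.08 for spok, -3.65 for CG15369, -2.34 for phm and -2.30 for CG1732. Hsp26 and Hsp68, also outside the rule, gave -2.59 and -2.21 (limma adjusted p 0.0115 to 0.0121). The chaperones within it gave -2.10 for Hsp23 and -1.96 for Hsp27. The remaining ones were -1.25 for NaPi-T, -1.21 for RpL41 and -1.21 for nimC2. The part of carried-over tissue in the values of spok, phm and sad was not tested.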

How the results depend on the processing

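Direction and call of the named genes held in 2436 of the comparisons of a gene with an alternative; 57 lost the call and 5 turned sign. All 5 were EcR, whose change was not called: -0.15 with upper-quartile scaling, -0.28 with quantile normalisation, -0.16 without EcR RNAi 0.5 M replicate 2, -0.072 without control 0.15 M replicate 3 and -0.067 with voom, against 0.02 with all libraries; without EcR RNAi 0.5 M replicate 3 it was 0.17. Main counts were 1524 higher and 1126 lower for the combined change, 400 and 265 for genes that moved only under both factors, and 125 and 75 of those with a called interaction. Upper-quartile scaling gave 1773 lower in the combined change, 219 higher and 450 lower under both factors, and 61 and 115 with the interaction. Quantile normalisation gave 244 higher under both factors and 71 higher with the interaction. Library weights, whose estimation stopped before its tolerance was reached, gave 538 lower under both factors, and 323 higher and 257 lower with the interaction. Voom on recovered reads, chosen after seeing the data, gave 97 lower under both factors and 28 lower with the interaction. Each library left out in turn gave 1124 to 1832 higher and 719 to 1363 lower in the combined change, 227 to 470 and 127 to 303 under both factors, and 44 to 173 and 31 to 93 with the interaction. Higher counts with the interaction came to 44 without EcR RNAi 0.5 M replicate 1, 71 without its replicate 3, 57 and 75 without control 0.15 M replicates 2 and 3, 53 without EcR RNAi 0.15 M replicate 2 and 68 without control 0.5 M replicate 3; the lower ones without control 0.15 M replicates 1, 2 and 3 to 47, 35 and 47, without EcR RNAi 0.15 M replicate 2 to 38 and without control 0.5 M replicate 3 to 42, and that last fit gave 171 lower under both factors. The cause was not tested. Of the 665 genes under both factors, 481 kept the status with upper-quartile scaling and 318 with voom.

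Same-numbered libraries of the compared groups deviated together by r = 0.165, 0.0173 and 0.0997. These values do not settle whether the numbers pair samples, and the main fit used no pairing. With the replicate block the counts were 1463 higher and 1130 lower, 372 and 252 under both factors, and 85 and 61 with the interaction. Of the EcR RNAi 0.5 M libraries, those numbered 1 and 3 correlated best with their own number. No filter gave the same counts as the filter, since all genes passed. With the 6 libraries alone, genes that moved only under both factors cannot be sought. Combined calls of named genes lost without 1 library, with the log2 difference there, were Cht2 at -0.75 without EcR RNAi 0.5 M replicate 1, Cyp4aa1 at 3.54 without EcR RNAi 0.5 M replicate 1, Fbp1 at -1.11 to -0.90 without EcR RNAi 0.5 M replicate 1 or 3 or control 0.15 M replicate 1 or 3, Mcm3 at -0.54 to -0.38 without EcR RNAi 0.5 M replicate 1 or 2 or control 0.15 M replicate 2 or 3, RpL41 at -0.77 to -0.63 without EcR RNAi 0.5 M replicate 1 or 3 or control 0.15 M replicate 1 or 2 or 3, RpS10b at 0.61 to 0.81 without EcR RNAi 0.5 M replicate 2 or 3 or control 0.15 M replicate 1 or 2. Further ones were RpS19b at -1.50 to -1.35 without EcR RNAi 0.5 M replicate 1 or 2 or control 0.15 M replicate 1 or 3, dm at 0.40 to 0.53 without EcR RNAi 0.5 M replicate 1 or 2 or 3 or control 0.15 M replicate 1 or 3, nvd at -1.81 to -1.78 without EcR RNAi 0.5 M replicate 1 or control 0.15 M replicate 1, salt at -1.12 to -1.04 without EcR RNAi 0.5 M replicate 2 or 3 or control 0.15 M replicate 1 or 2, verm at 0.37 to 0.54 without EcR RNAi 0.5 M replicate 1 or 3 or control 0.15 M replicate 1 or 2 or EcR RNAi 0.15 M replicate 2 or 3. The precision is limited by 3 libraries a group.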

Other observations

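Detoxification genes formed the largest list. Of 104 measured cytochrome P450 and glutathione transferase genes 31 rose and 16 fell (median log2 difference 0.33), against 15.2% and 11.2% of all genes in the same directions. Cyp6a22 had signals of 969, 1044 and 938 in EcR RNAi 0.5 M libraries, against 112, 127 and 79.7 in control 0.15 M libraries, and GstE9, a glutathione transferase, 984, 989.5 and 1225 in EcR RNAi 0.5 M libraries, against 199.8, 172 and 149 in control 0.15 M libraries. Neither overlapped between groups. Cyp4d14 averaged 2528 ± 626 in EcR RNAi 0.5 M and 158 ± 37.8 in control 0.15 M libraries (SD, n = 3 each). The log2 differences were 3.22 ± 0.21 for Cyp6a22 and 2.61 ± 0.19 for GstE9 (SE; limma adjusted p 1.42e-08 to 6.23e-08). P450 and transferase genes lie in families of similar sequence, and reads of close copies may be split between them.

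Of 15 measured muscle markers none was called in the combined change (median 0.67), though 11 were in the diet change within EcR RNAi, and their summed signal was 43800.4 to 90571 in EcR RNAi 0.5 M and 23362 to 51112 in control 0.15 M libraries. Of 11 midgut markers 1 rose and 0 fell, mex1 (1.27), of 10 cuticle and trachea markers 1 rose and 1 fell, verm (0.54) and Cht2 (-0.92), and of 8 nervous system markers none was called. Of 3 gonad markers 1 rose and 0 fell, Mst87F, a testis gene, at 109 in EcR RNAi 0.5 M and 14.4 in control 0.15 M libraries. Of 5 Malpighian tubule markers 0 rose and 3 fell, CG3285 (-0.95), salt (-1.28) and NaPi-T (-0.77). The calls of verm, Cht2 and salt were kept in 6, 11 and 8 of 12 fits without 1 library. Beside these marker counts, 15.2% of all genes rose and 11.2% fell.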
